A study of Mus musculus with 10 samples.

Results

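The arrays described here are the 5 labelled Ikzf1+/+, out of 10 arrays in the series, chosen by that genotype label alone. On each, Cy5-labelled DNA from GFP-positive leukemic cells of the bone marrow of wild-type mice with BCR-ABL1 leukemia was hybridised against Cy3-labelled DNA of non-leukemic bone marrow of matched stage. The series' design text describes the normal DNA differently, as coming from B220-positive B cells. The other 5 arrays, of Ikzf1+/- leukemias, are cited only where a value of theirs shows what an Ikzf1+/+ value means. The labels say neither which mouse strain, age or sex was used nor whether the 5 tumours came from separate animals, so every SD and p-value below measures the spread between these samples.

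BCR-ABL1 is a fusion tyrosine kinase that drives a B-lineage acute lymphoblastic leukemia in people and in mice. Ikzf1 encodes Ikaros, a zinc-finger transcription factor of lymphoid development that is often deleted in the human disease; here both copies were wild type by label. Array comparative genomic hybridisation measures how much DNA each stretch of the genome contributes to a tumour relative to a normal genome. A log2 ratio of 0 means equal DNA, a value above 0 more DNA in the leukemia and a value below 0 less. In a pure population, 3 copies against 2 would give 0.585 and 1 copy against 2 would give -1, and normal cells or a subclone in the sample bring the ratio closer to 0.

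The array had 402346 placed probes with a median spacing of 5.34 kb on autosomes, of which 392812 gave an unsaturated signal well over background for both dyes on every one of the 5 arrays. Median background-subtracted signal of tumour DNA was 88.4, 93.0, 159, 107 and 153 intensity units in tumours 1 to 5, and that of the reference averaged 174 ± 5.76 (SD, n = 5). Probe noise, the SD of the log2 ratio between neighbouring probes, was 0.222, 0.216, 0.184, 0.201 and 0.207. Tumour 1 thus had the weakest tumour signal and the highest noise, and tumour 3 the strongest signal and the lowest noise. No array had its dyes swapped, so any dye effect common to all arrays stays in every ratio.

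The sex chromosomes set the Ikzf1+/+ tumours apart from their reference. The median ratio of the 19253 probes on chromosome X was +0.84, +0.94, +0.91, +0.93 and +0.92 in tumours 1 to 5, and that of the 606 probes on Y was -2.62, -2.30, -2.87, -2.64 and -2.40. The median background-subtracted signal of the reference was 164 to 179 intensity units over all spots and 76.1 to 82.7 on X. That of tumour DNA was 88.4 to 159 over all spots and 73.9 to 132 on X. On Y, it was 3.68 to 7.55 for tumour DNA and 75.2 to 84.1 for the reference. Tumour signal on Y was thus close to background, and a ratio of it moves with the background that is subtracted. The Ikzf1+/- arrays lay between +0.09 and +0.14 on X and between +0.05 and +0.09 on Y. The labels give no sex, and whether tumour and reference DNA differed in it was not tested. X and Y were left out of the calls and of the window test, and X serves below as a chromosome whose shift was similar in all 5 arrays. With normexp background correction the X medians were lower, between +0.35 and +0.44, and the Y medians were +0.074, +0.040, -0.19, -0.0026 and -0.18. Over well measured probes only, Y lay at -0.94, -0.43, -0.47, -0.64 and -0.24. X was above 0 in all 5 tumours under every setting run, while the level of Y depended on the setting. The well measured set leaves out probes whose tumour signal was not well over background, and normexp added an offset of 50 to both dyes. Neither setting can therefore show how low Y lay where tumour signal was near background. The normexp setting started from the local background beside each spot, 40 to 48 units for tumour DNA and 48 to 59 for the reference, whereas the processed signals had 68.0 to 83.3 and 121 to 134 units removed, so the settings do not start from the same background. The part of this in the normexp values given below was not tested.

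Chromosome 5 was raised along its length in tumours 3 and 5, and chromosome 19 in tumour 5. The median ratio of chromosome 5 was +0.46 in tumour 3 and +0.21 in tumour 5, over 22964 and 22960 probes. That of chromosome 19 was +0.22 in tumour 5, over 10279 probes. Tumours 1, 2 and 4 showed neither shift. All medians of the other 17 autosomes lay between -0.03 and +0.04 in all 5 tumours. Set against the X median of the same array, the chromosome 5 shift was 50.7% of it in tumour 3 and 23.0% in tumour 5, and the chromosome 19 shift of tumour 5 was 23.9%. After normexp correction, which raised these medians and lowered X, the shares were 166%, 69.2% and 76.3%, so they give no stable scale. The 2 shifted chromosomes of tumour 5 were thus at about the same height. Each is a single array's value with no replicate.

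**Figure D1:**
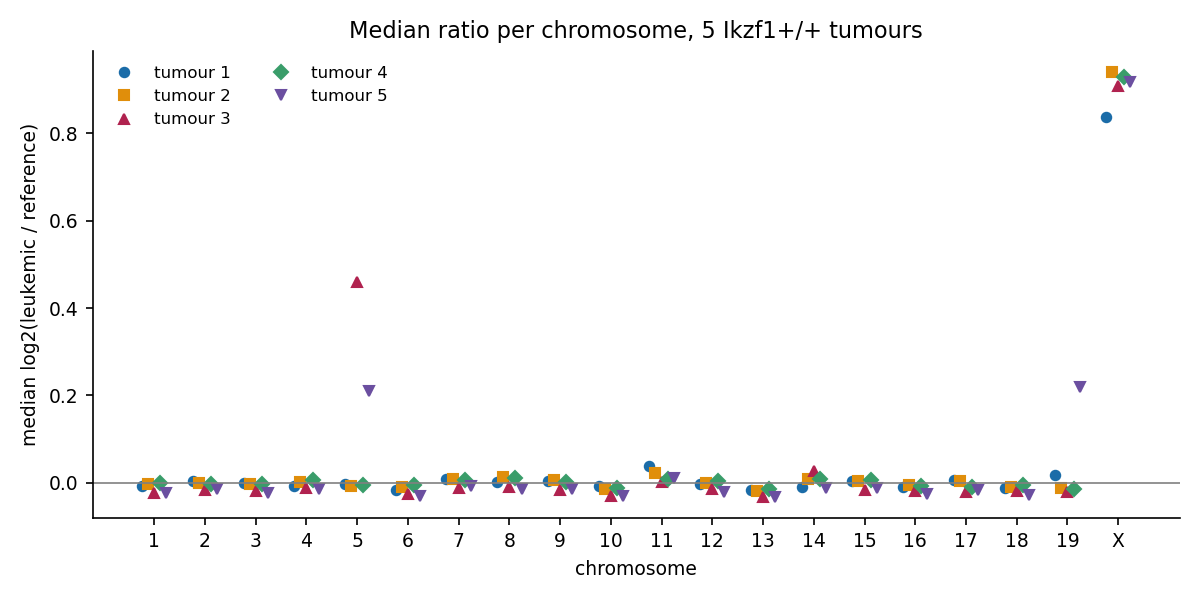
Median log2 ratio of leukemic over reference DNA (y axis) for each autosome and X (x axis), with 1 marker per Ikzf1+/+ tumour. Chromosome 5 stands at +0.46 in tumour 3 and +0.21 in tumour 5, chromosome 19 at +0.22 in tumour 5, and X between +0.84 and +0.94 in all 5 tumours, while the other autosomes lie near 0.

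In 4 parts of equal probe number, chromosome 5 lay at +0.42, +0.46, +0.48 and +0.47 in tumour 3 and at +0.17, +0.20, +0.23 and +0.24 in tumour 5. Chromosome 19 lay at +0.21, +0.23, +0.23 and +0.21 in tumour 5. Of 1446 windows of 100 kb on chromosome 5, 1445 were higher in tumour 3, and 1434 in tumour 5, than the mean of tumours 1, 2 and 4. Of 574 windows on chromosome 19, 572 were higher in tumour 5 than the mean of the other 4 tumours. Nearly all windows of both chromosomes were thus raised, from the proximal to the distal end.

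Some short stretches of chromosome 5 did not follow the gain. In tumour 3, 7 of 1446 windows stayed under 50% of its median excess over tumours 1, 2 and 4, and in tumour 5, whose excess was smaller, 86 (5.95%). On chromosome 19, 17 of 574 windows of tumour 5 did. The stretch chr5:3400849-3459598 (mm9, 181 probes), near the proximal end, lay at -0.12 in tumour 3 and -0.34 in tumour 5, against -0.03, -0.28 and -0.10 in tumours 1, 2 and 4. The stretch chr5:143208648-143455382 (23 probes) lay at +0.06 in tumour 3 and +0.10 in tumour 5, against +0.09, +0.06 and +0.07 in tumours 1, 2 and 4. In the first stretch tumours 3 and 5 were both lower than tumours 1 and 4. In the second, tumour 3 lay among the tumours without the gain and tumour 5 slightly above them. A different stretch, chr5:146182979-147000266 (61 probes, 817 kb), lay at +0.01 in tumour 5 but at +0.40 in tumour 3. Here the DNA was raised in tumour 3 and not in tumour 5.

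**Figure D2:**
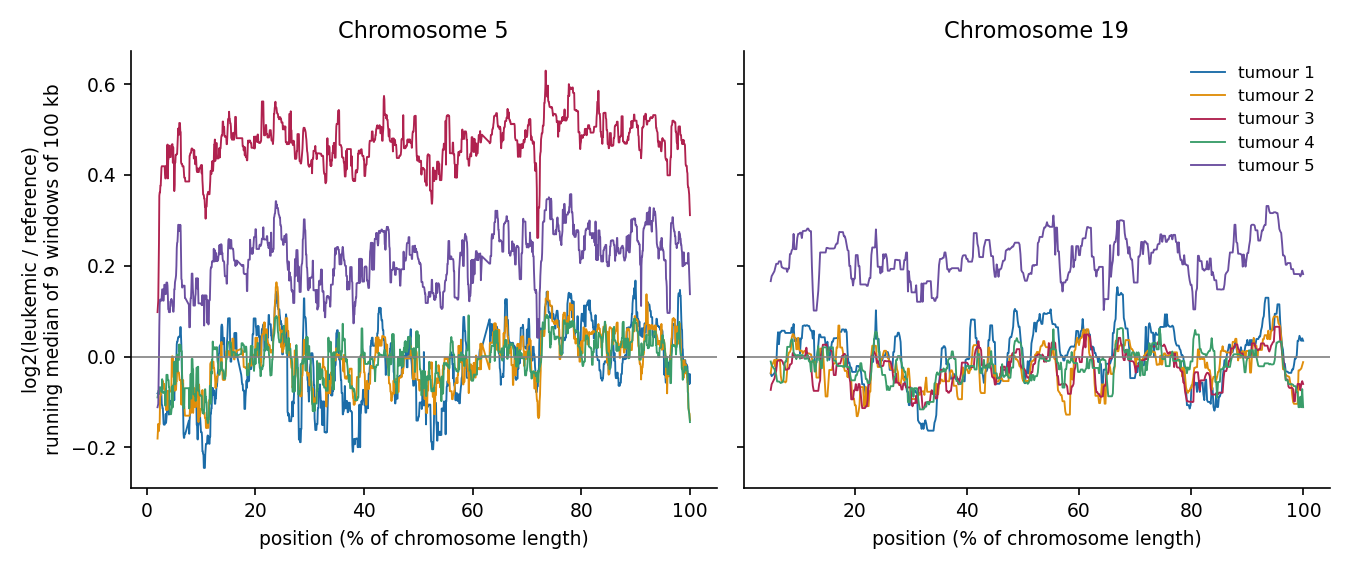
Running median of 9 windows of 100 kb of the log2 ratio (y axis) along chromosomes 5 and 19 (x axis, percent of chromosome length), with 1 line per tumour. On chromosome 5 tumour 3 runs highest and tumour 5 between it and the other 3 tumours; on chromosome 19 only tumour 5 is raised, and every line carries small waves along the chromosome.

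The gained chromosomes carry many genes, among them several of 110 listed leukemia-related and control genes; all 110 were matched to a chromosome in the RefSeq gene table of GRCm38. Chromosome 5 carries 10 of them. Kit, Flt3 and Pdgfra are receptor tyrosine kinases, Ptpn11 is a phosphatase of the RAS pathway, Sh2b3 is an adaptor that restrains cytokine signalling, and Cdk6 is a cyclin D-dependent kinase of the G1 phase. Gfi1, a transcriptional repressor of blood cells, Nsd2, a histone methyltransferase, and the very long genes Auts2 and Magi2 are also on it. Chromosome 19 carries, among others, the tyrosine kinase gene Jak2, the PI3K adaptor Pik3ap1, the pre-B-cell receptor adaptor Blnk, the terminal transferase Dntt, and Prkg1. No mm9 gene annotation was used, so no probe was assigned to any of these genes, and the statement is only that their chromosomes were raised in the named tumours.

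In all, 83 gains and 38 losses were called, a call being a segment of at least 5 probes with a mean of at least 0.3 in either direction. Of the gains, 5 were pieces of the raised chromosome 5 of tumour 3 and 1 of the raised chromosome 19 of tumour 5, and 77 lay elsewhere. Gains numbered 39, 9, 10, 19 and 6 in tumours 1 to 5, or 16.6 ± 13.4 (SD, n = 5), and losses 6, 6, 4, 4 and 18, or 7.6 ± 5.90. Without tumour 1 gains averaged 11, and without tumour 5 losses averaged 5.0. As background, called gains touched 0.252%, 0.0598%, 6.2%, 0.137% and 0.82% of the 23425 tested windows in tumours 1 to 5, and called losses 0.0939%, 0.12%, 0.0512%, 0.047% and 0.201%. Gained DNA summed to 2.17, 0.568, 149, 1.08 and 18.6 Mb, and lost DNA to 1.64, 4.08, 0.754, 0.666 and 18.6 Mb. The 149 Mb of tumour 3 were almost wholly chromosome 5, in 3 long calls at chr5:3459652-110073728 (+0.45), chr5:110082126-143206006 (+0.51) and chr5:143515888-152536960 (+0.43), and the 18.6 Mb gained in tumour 5 were mostly a stretch of chromosome 19 from 41003657 to 59141595, joined from 2 called segments across DNA at 0.15 or more. Without tumour 3 the mean of gained DNA was 5.61 Mb. The chromosome 5 shift of tumour 5 lay under the threshold and was not called; at a threshold of 0.2 this tumour had 189 Mb gained.

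**Figure D3:**
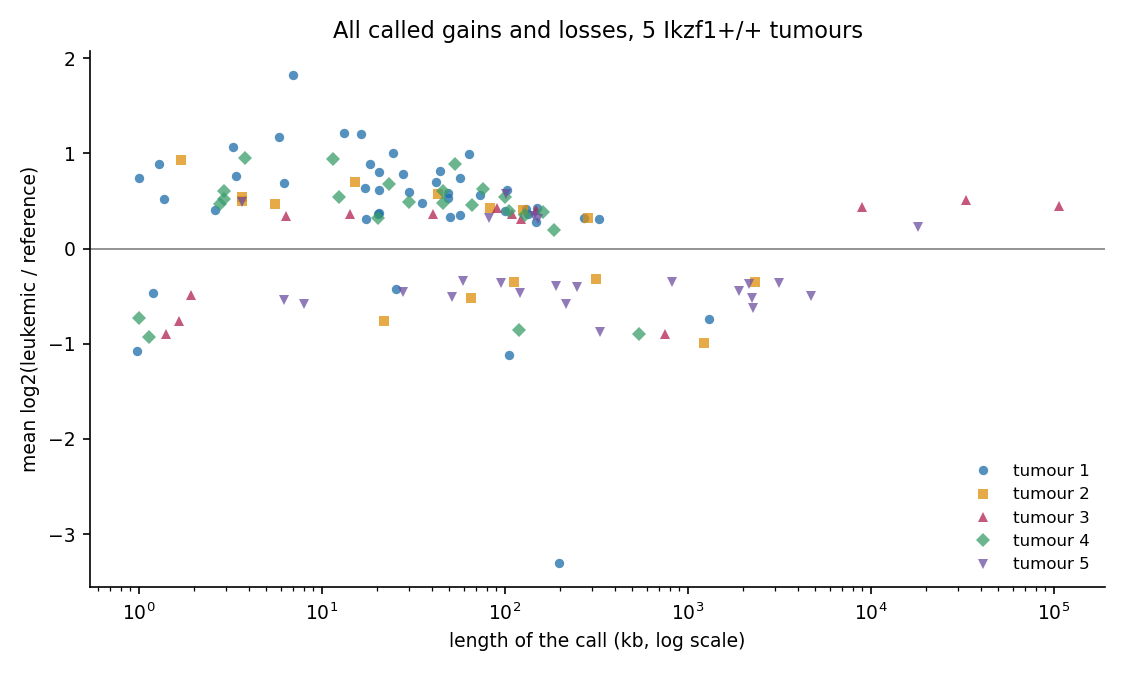
Length of each of the 121 calls (x axis, kb, log scale) against its mean log2 ratio (y axis), with 1 marker per call and its shape and colour by tumour. Most gains are short and their highest values belong to tumour 1; the 4 gains over 1 Mb are of tumours 3 and 5, and the single point near -3.3 is the chromosome 4 loss of tumour 1.

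Most calls were short, with a median of 51.9 kb, 43.5 kb for gains and 121 kb for losses. Only 13 were longer than 1 Mb, 4 gains and 9 losses. Of all calls, 39 gains and 29 losses overlapped no call of the same direction in another Ikzf1+/+ tumour. Densely tiled stretches of the array, which hold 14.3% of autosomal probes in 15.5 Mb, were touched by 39 of 121 calls, or 32.2%. A short change there meets more probes than elsewhere.

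The call with the lowest mean was a loss on chromosome 4 in tumour 1, at a place also lost in tumour 5. Over chr4:88879097-89076517 (mm9, 197 kb, 172 probes) the mean was -3.30 in tumour 1 and -0.58 in tumour 5, against +0.04, +0.08 and +0.10 in tumours 2, 3 and 4. Tumours 1 and 5 were below 0 and the other 3 slightly above it. In tumour 1, 150 of the 172 probes were below -2 and all 172 below -0.3, and in tumour 5 none was below -2 and 141 were below -0.3. Both losses ended at the same probe, and the segment that began at the next probe, 15.6 kb further, was near 0. The 500 kb on the distal side averaged +0.05 in tumour 1 and +0.01 in tumour 5. On the proximal side tumour 5 began 19.4 kb before the shared stretch, while tumour 1 had a step of 3 probes at -2.26 over 15.1 kb, too few for a call. Segment means inside the loss of tumour 1 ran from -1.65 to -4.15, and in tumour 5 the whole loss was a single segment of 177 probes at -0.59.

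Chromosome 4 carries Cdkn2a and Cdkn2b, inhibitors of the cell cycle that are often deleted in human BCR-ABL1 leukemia, as well as Mtap, Cdkn2c and Pax5 among the listed genes, 10 of 110 in all. Whether any of them lies in the lost stretch was not determined. Within that stretch tumour 4 had a short gain of 9 probes over 2.94 kb at +0.61, where tumours 1 and 5 were at -3.58 and -0.55. Its median over probes was only +0.34. Neighbouring probes at +1.39 and +1.60 raised the mean, and tumour 3, without a call, was also high at them (+0.87 and +0.80). After normexp correction the loss averaged -0.63 in tumour 1 and -0.41 in tumour 5, so the depth in tumour 1 depends strongly on background correction while the other 3 tumours stayed between +0.01 and +0.11.

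**Figure D4:**
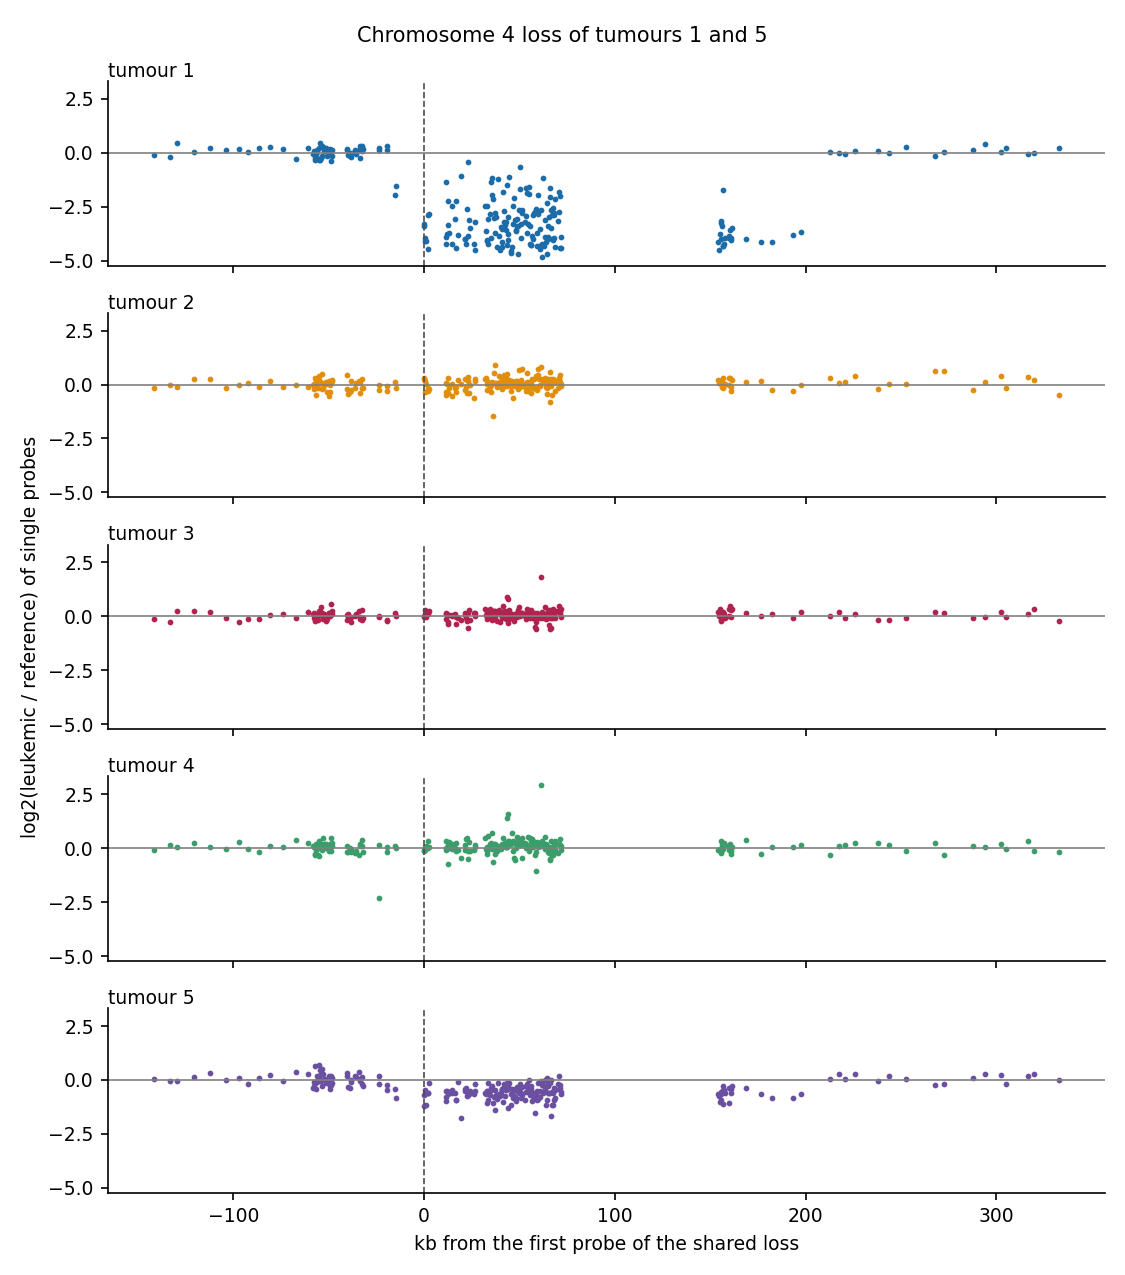
Log2 ratio of single probes (y axis) against distance in kb from the first probe of the shared chromosome 4 loss (x axis, dashed line at 0), 1 panel per tumour. Probes of tumour 1 drop to between -0.43 and -4.84 over 197 kb and those of tumour 5 centre on -0.58, while tumours 2, 3 and 4 stay near 0.

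A loss on chromosome 12 was called in all 5 tumours. Its calls were 1308, 1226, 749, 544 and 331 kb long in tumours 1 to 5, with means of -0.73, -0.99, -0.90, -0.89 and -0.88. Segmentation placed the proximal edge in the same gap in all 5, between the probes ending at 114664569 and starting at 114670169 (mm9). The distal ends of the calls spread over 977 kb, from 115001173 to 115978441. The segment edge was thus shared, while the calls differed in length. In tumours 2 and 3 the first 3 probes formed a segment too short for a call. Their calls therefore began at 114683474, 13.3 kb further on. In tumour 5 a further segment of 143 probes at -0.26, under the threshold, ran on to 116046793. Counting segments down to -0.15, the reduction reached 1308, 1239, 763, 544 and 1377 kb from the shared edge in tumours 1 to 5, so tumour 5, with the shortest call, had the farthest reach.

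Chromosome 12 carries the immunoglobulin heavy chain locus in the mouse. Developing B cells cut and join the gene segments of this locus by V(D)J recombination, which removes the DNA between the joined segments. The position of the locus among these probes was not determined. B cells in a reference can themselves hold rearranged copies; the design text names B220-positive B cells as the normal DNA, and the labels name non-leukemic bone marrow.

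The loss had steps that differed between the tumours. In tumour 2 the 6 probes from 114683474 to 114744391 averaged -4.20, the next 9 probes -2.84, and the rest of the call -0.77. Tumour 3 had 5 probes from 114683474 to 114719029 at -3.65 followed by 100 probes at -0.76. In tumour 4, the probes starting at 114670169, 114675830 and 114683474 lay at -2.31, -4.19 and -4.22, and those after them were between -0.34 and -0.82 up to 114744332. Tumour 5 stepped from -1.32 over 102 kb to -0.67 and then to -0.26. In tumour 1 the step ran the other way, from -0.50 over 199 kb to -0.78 over 1092 kb. Deep probes, below -3, numbered 0, 13, 6, 2 and 0 in tumours 1 to 5, and tumour 1 had no probe below -1.63. The probe at 114672646, inside the deep part of tumours 2, 3 and 4, was at -0.31 to -0.63 in all 5.

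Over the stretch chr12:114670169-115909227, which 180 probes cover, the means were -0.73, -1.02, -0.51, -0.29 and -0.41, or -0.59 ± 0.29 (SD, n = 5). After normexp correction they were -0.22, -0.31, -0.24, -0.10 and -0.28, or -0.23 ± 0.08. The stretch stayed below 0 in all 5 tumours under both settings, at very different depth. Calls there were also made in 4 of the 5 Ikzf1+/- arrays.

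**Figure D5:**
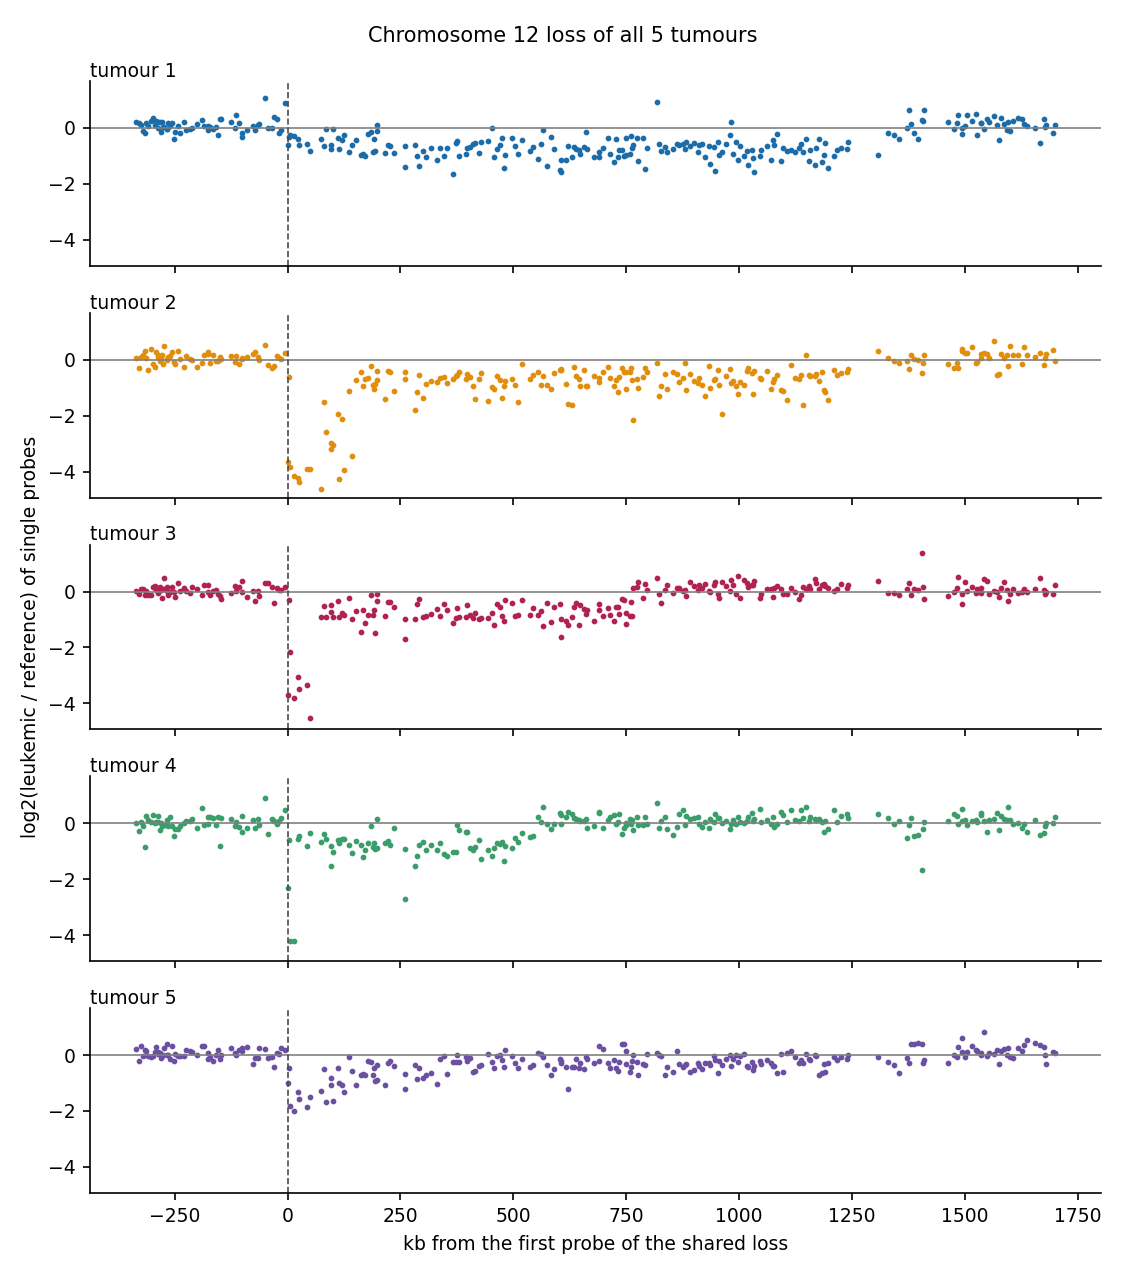
Log2 ratio of single probes (y axis) against distance in kb from the first probe of the shared chromosome 12 loss (x axis, dashed line at 0), 1 panel per tumour. All 5 tumours drop at the dashed line; tumours 2, 3 and 4 have probes below -2 next to it, and the distance at which the ratio returns to 0 differs between the tumours.

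Tumour 5 had more losses than any other Ikzf1+/+ tumour, 18, and 6 of the 9 losses over 1 Mb. These long losses were covered by few probes. They lay at chr2:174991644-177265352 (-0.62, 7 probes), chr4:145018403-147189694 (-0.37, 66 probes), chr12:17998820-21167313 (-0.37, 38 probes), chr12:22857105-25094687 (-0.52, 14 probes), chr14:3042998-7743247 (-0.50, 11 probes) and chr14:42523843-44430990 (-0.45, 19 probes). Their probes were 33.4 to 470 kb apart, against the 5.34 kb of the whole array, so the lengths rest on sparse points.

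The other tumours took a common order at these losses. Over the 6 long losses the median ratio was +0.07, -0.27, -0.22, -0.02 and -0.47 in tumours 1 to 5. Tumours 2 and 3 were both lower than tumours 1 and 4 at 6 of 6. Over all 18 losses of tumour 5 they were so at 16, with medians of -0.28 and -0.19 in tumours 2 and 3 and 0.00 and -0.05 in tumours 1 and 4. Tumours 2 and 3 were thus lower than tumours 1 and 4 at most of these stretches. The stretches were chosen as losses of tumour 5, so its own low values there follow from that choice. At chr14:42088997-44430990 tumour 2 was called as well (-0.36, 21 probes). The order did not hold after normexp correction, when tumours 2 and 3 were both lower than tumours 1 and 4 at 0 of the 6 long losses and at 1 of all 18. The medians over the 6 were then -0.24, -0.40, -0.13, -0.17 and -0.29 in tumours 1 to 5, and tumour 5 itself ran from -0.39 to -0.19. Tumour 5 remained below 0 at each of the 6 but was the lowest tumour at none. Segmented after normexp correction, tumour 5 had 4 losses of 1.12 Mb in all, and tumour 2 had 23 of 18.3 Mb.

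Some changes were called in a single tumour. In tumour 4, chr14:10839768-10960038 (120 kb, 371 probes) lay at -0.85, and at -0.43 after normexp correction, while tumours 1, 2, 3 and 5 lay at +0.00, +0.01, +0.06 and +0.02. In tumour 1, chr14:108292379-108398047 (106 kb, 12 probes) lay at -1.12, and at -0.20 after normexp correction. Tumours 2 to 5 were not called there but were below 0 as well, at -0.24, -0.18, -0.21 and -0.35. Among the listed genes, chromosome 14 carries Rb1, a brake on the cell cycle, Blk, a kinase of B cells, and Fhit, a very long gene of a fragile site, and none was placed against these losses. In tumour 5, chr11:44718315-44800797 (82.5 kb, 265 probes) was gained at +0.32, against +0.05 to +0.15 in the others. The tumour 4 loss and the tumour 5 gain are named after their values were seen.

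All 9 calls with a mean of at least 1 in either direction were in tumour 1, 6 gains and 3 losses. The third loss, besides those on chromosomes 4 and 14 above, covered 5 probes in 0.975 kb at chr4:28752377-28753351 (-1.07) and turned to +0.19 after normexp correction. The gains lay at chr13:21802891-21809868 (+1.82, 7 probes), chr3:101078177-101091503 (+1.22, 5 probes), chr2:163449186-163465571 (+1.21, 5 probes), chr4:44538376-44544223 (+1.17, 18 probes), chr16:16860895-16864189 (+1.07, 17 probes) and chr2:155978174-156002737 (+1.00, 7 probes). All 6 were under 25 kb. Probes within them disagreed, with an SD of 1.73 on chromosome 13 and 1.14 on chromosome 16, where the median over probes was +1.15 and +0.49.

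Of the 83 gains, 44 overlapped a gain in another Ikzf1+/+ tumour, as did 9 of the 38 losses a loss. The 44 include long pieces of the raised chromosomes 5 and 19 and short gains of other tumours that these pieces cover. In all, 15 stretches were called gained and 3 called lost in at least 2 Ikzf1+/+ tumours. Of the 15, 6 were called in 2 tumours, 4 in 3, 4 in 4 and 1 in all 5. They were 1.00 to 171 kb long with a median of 20.2 kb, and 2 of them were also called in an Ikzf1+/- array. The 15 were chosen by calls in Ikzf1+/+ tumours, so this count does not compare the genotypes. In 14 of 15, all 5 tumours were above 0. Each stretch was in the set because at least 2 of these tumours were called there. The raised chromosomes also lift tumours 3 and 5 on chromosome 5 and tumour 5 on chromosome 19. Of all 23425 windows, 6508 had all 5 tumours on the same side of 0, above or below. The 14 therefore do not show that tumours without a call shared the gain.

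The stretch gained in all 5 was chr4:133263273-133434202 (171 kb, 33 probes), at +0.37, +0.39, +0.37, +0.40 and +0.41 in tumours 1 to 5, or +0.39 ± 0.02 (SD, n = 5). The tumours were close to each other, and the Ikzf1+/- arrays averaged +0.16 ± 0.07 there. The stretch chr9:40479345-40642551 (163 kb, 30 probes) lay at +0.38, +0.33, +0.25, +0.38 and +0.29 and was called in all 5 Ikzf1+/- arrays too, which averaged +0.31 ± 0.08. The stretch chr17:87752722-87858704 (106 kb, 20 probes) lay at +0.41, +0.31, +0.33, +0.37 and +0.37, though only tumours 4 and 5 were called. At chr4:35747474-35864269 (117 kb, 18 probes) tumour 1 was lowest with +0.11, and the others lay between +0.32 and +0.35. After normexp correction the 5 values there were +0.14, +0.21, +0.20, +0.24 and +0.12, so all were under 0.3 and tumour 5 was the lowest.

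Shorter shared gains were more uneven. At chr4:44537801-44544223 (6.42 kb, 19 probes) the values were +1.13, +0.43, +0.34, +0.72 and +0.36. At chr8:125416032-125419865 (3.83 kb, 19 probes) they were +0.98, +0.47, +0.16, +0.95 and +0.33, and at chr16:16860895-16864555 (3.66 kb, 19 probes) +0.94, +0.54, +0.34, +0.60 and +0.49. At the last, medians over probes averaged only +0.28, against +0.58 for means, so a few high probes set the mean. At chr19:41003657-41067601 (13 probes) the values were +1.00, +0.49, +0.27, +0.46 and +0.65, and at chr2:155997795-156002737 (3 probes) +1.42, +0.67, +0.30, +1.09 and +0.63. Tumour 1 was the highest at all 5 of these stretches, and tumour 3 the lowest. After normexp correction tumour 4 was the highest on chromosome 8 (+0.96 against +0.82), and tumour 2 was the lowest on chromosomes 4 and 16 (+0.44 and +0.47). With medians over probes tumour 5, in which all of chromosome 19 was raised, was the highest on that chromosome, and tumour 2 was the lowest on chromosome 16.

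The rest of the shared gains lay lower or rested on few probes. At chr19:45825003-45852893 (8 probes) the values were +0.78, +0.46, +0.14, +0.55 and +0.59, and at chr7:121191448-121257537 (16 probes) +0.58, +0.31, +0.10, +0.46 and +0.27. At the chromosome 19 stretch tumour 5 was called only through its long joined gain, whose segment there lay at +0.25. The values of tumour 5 there and at chr19:41003657-41067601 include the gain of the whole chromosome. At chr14:62288258-62300780 (48 probes) tumours 1 and 4 lay at +0.44 and +0.54, above the +0.15, +0.06 and +0.15 of tumours 2, 3 and 5. A pair of short stretches lay on chromosome 5. At chr5:109983834-109986632 (14 probes) the values were +0.39, +0.21, +0.52, +0.47 and +0.27, and at chr5:151464063-151465063 (6 probes) +0.74, +0.18, +0.56, +0.49 and +0.29. In tumours 3 and 5 these include the gain of the whole chromosome, and tumours 1 and 4, without it, reached similar values. In tumour 3 both stretches lay inside its long chromosome 5 calls, and the second was otherwise called in tumour 1 only. After normexp correction tumour 1 fell to +0.14 at the first of them, against +0.77 in tumour 3.

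A like order was seen over the 15 shared gains. They were chosen by calls in these same tumours, so the ranks and means are not independent of that choice. Tumour 1 was the highest in 10 and tumour 3 the lowest in 11, and the mean over the 15 was +0.67, +0.36, +0.27, +0.54 and +0.37 in tumours 1 to 5. After normexp correction tumour 1 was the highest in 9, tumour 3 the lowest in 7 and tumour 2 in 6, and the means were +0.60, +0.30, +0.35, +0.53 and +0.47. Tumours 1 and 4 kept the highest means, and tumour 3 was no longer the lowest. Only 4 were called in tumours 1 and 4 and in no other. They were on chromosomes 2, 7, 10 and 14, and at chr10:117126240-117146475 (58 probes) tumours 1 and 4 lay at +0.37 and +0.32 while tumours 2, 3 and 5 lay at +0.10, -0.01 and +0.08. Tumours 1 and 4 also had the most gains, 39 and 19; segmented after normexp correction, gains numbered 29, 3, 4, 15 and 18 in tumours 1 to 5, so that tumour 5 passed tumour 4. Tumour 1 had the weakest tumour signal, 88.4, and tumour 4, at 107, lay above the 93.0 of tumour 2, which had 9 gains. The part of signal strength in these gains was not tested. Without tumours 1 and 2, the 2 arrays of weakest tumour signal, 7 gained stretches and 1 lost stretch were called in at least 2 tumours, and gains averaged 11.7 and losses 8.67 a tumour.

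Windows of 100 kb were then tested for a shift common to all 5 tumours. Of 23425 autosomal windows, 344 were above 0 (1.47%) and 854 below 0 (3.65%) in limma at a Benjamini-Hochberg adjusted p of 0.05. Most of these shifts were small. The median size was 0.13 on the log2 scale, 82 windows reached 0.2 in either direction and 13 reached 0.3. The counts rested on all 5 arrays being present. Without tumour 1 there were 1 above and 2 below, without tumour 2 3 and 4, without tumour 3 38 and 29, without tumour 4 1 and 2, and without tumour 5 2 and 5. With medians over probes 6 were above and 4 below. Only 2 windows passed in the full set and with each tumour left out in turn.

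These 2 were the window at 133300001 on chromosome 4 and the window at 114900001 on chromosome 12. The first lay in the gain shared by all 5 tumours, at +0.43, +0.43, +0.44, +0.55 and +0.59, or +0.49 ± 0.08 (SD, n = 5, limma adjusted p = 0.00364). The second lay in the chromosome 12 loss, at -0.94, -0.97, -0.84, -1.07 and -0.68, or -0.90 ± 0.15 (n = 5, limma adjusted p = 0.00346). After normexp correction the chromosome 4 window stayed past the threshold at +0.39 (limma adjusted p = 0.0174), and the chromosome 12 window did not, at -0.15 (limma adjusted p = 0.0939).

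The 10 highest and 10 lowest windows past the threshold repeated many of the stretches above. With medians over probes 3 of the 10 highest and 3 of the 10 lowest stayed past the threshold, and after normexp correction 6 and 4. Among the highest were the windows of chromosome 19 at 41000001 (+0.45 ± 0.22), chromosome 9 at 40500001 (+0.35 ± 0.05) and chromosome 17 at 87800001 (+0.29 ± 0.07). The chromosome 9 and 17 windows passed under both of these settings. The chromosome 19 window passed under neither, at +0.30 with medians (limma adjusted p = 0.0616) and +0.49 with normexp (limma adjusted p = 0.0556), and in 1 of the 5 sets with a tumour left out. The window of chromosome 7 at 111400001 was at +0.45 ± 0.15, but at +0.04 with the median over its probes. Of the other 5, all on chromosome 5, that at 52500001 lay at +0.39, +0.23, +0.49, +0.25 and +0.30 in tumours 1 to 5. Tumours without the chromosome 5 gain were above 0 there too. The windows at 85900001, 50900001, 36300001 and 36400001 averaged between +0.28 and +0.33 and passed in no set with a tumour left out.

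Among the lowest, 4 were consecutive windows of the chromosome 12 loss, from 114800001 to 115100001, at means of -0.90 to -0.66. Next came the window of chromosome 11 at 121800001, near the distal end, at -0.39, -0.35, -0.40, -0.34 and -0.50 in tumours 1 to 5, on 3 probes. It passed with 4 of the 5 tumours left out in turn. The windows of chromosome 2 at 181700001 (-0.35 ± 0.16), chromosome 9 at 3300001 (-0.28 ± 0.12), chromosome 7 at 67700001 (-0.27 ± 0.13), chromosome 1 at 197100001 (-0.25 ± 0.09) and chromosome 17 at 18900001 (-0.25 ± 0.07) had all 5 tumours below 0. None of these 5 passed with medians over probes (limma adjusted p of at least 0.0616) or after normexp correction, when they averaged between -0.15 and -0.05 (limma adjusted p from 0.0784 to 0.460). No window of chromosomes 5 or 19 was below 0 in the test, where the raised DNA of tumours 3 and 5 or of tumour 5 works against such a call. Each of the other autosomes had between 24 and 83, or 1.85% to 6.67% of its windows.

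Small shifts were shared along the rest of the genome as well. Over 21255 windows outside calls and outside chromosomes 5 and 19, the correlation between window means of 2 tumours ran from r = 0.31 to r = 0.50 over the 10 pairs. It was highest between tumours 3 and 5 (0.50) and between tumours 2 and 5 (0.49). Windows of 1 genome are not independent, and the 5 arrays share the probe design, the dye orientation and a reference of the same kind. The part of each in these correlations was not tested.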

How the data were processed

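Array comparative genomic hybridisation of 5 Ikzf1+/+ leukemias (Cy5) against non-leukemic DNA (Cy3) was analysed; groups and replicate numbers came from the labels. Per the labels' protocols, DNA was extracted with phenol and chloroform and 1.5 µg was labelled with an Agilent ULS kit. The deposited scanner files give each spot's processed intensity, already background-subtracted and dye-normalised under a lowess CGH protocol, and a log10 ratio, per the file headers. The headers name Feature Extraction 10.7.3.1 and build mm9, and the submitters' processing notes name version 10.5.1.1. The deposited series matrix holds log2 ratios of Cy5 over Cy3: its slope on the scanner's ratio was 1.00 on each array, its columns were not centred, and their medians were -0.010, -0.010, -0.019, -0.011 and -0.014 in tumours 1 to 5.

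From these, log2 of processed Cy5 over Cy3 was taken for 412783 spots that were not controls. Outlier spots were left out, spots of a probe averaged and arrays centred on the autosomal median. Of 402404 probes, 58 had no position. Each array was segmented by PELT (numpy 2.4.6, numba 0.67.0, pandas 2.3.3, Python 3.11.15) with at least 3 probes a segment, a penalty of 2 noise variances times the log of the probe number, and single probes clipped at 4 noise SDs from the median of 11 neighbours. Calls had at least 5 probes and a mean of at least 0.3 in size, and neighbouring calls were joined across gaps under 5 probes or segments at 0.15 or more. Densely tiled stretches were runs of at least 100 probes less than 2 kb apart. Windows of 100 kb with at least 3 probes were tested with limma 3.58.1 (R 4.3.3), lmFit and eBayes on the intercept. Both procedures were tested on simulated data with independent noise. That noise lacks the small shifts shared between the tumours, so the simulations do not measure false calls from such shifts. The number of arrays limits the precision.

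Named were all calls over 1 Mb or at least 1 in size, regions called in 2 or more tumours, the 10 highest and 10 lowest called windows, chromosomes with a median of at least 0.15 in size, X and Y. A test of genes was not run, since no probe could be assigned to a gene; the gene table is of GRCm38 and named chromosomes only. Not every listed gene is reported here. Normexp correction (offset 50) used median spot signals and the local background, which was below the background already subtracted from the processed signals. Alternatives were other thresholds, penalties, filters, background correction, the matrix, the slide as a random block and leaving out tumours. The arrays and gene lists were chosen with earlier results of these data known.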

Additional observations from a re-analysis of the deposited data

Results flagged for a closer look

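Of 48 sets of 5 tumour values, 7 had a tumour far from the other 4 relative to the range. Chance flags about 1 in 20 sets of independent, normally distributed values. These sets include overlapping measures, and stretches and windows chosen by calls or tests in the same tumours. The 7 of 48 can therefore not be set against that rate. Tumour 5 stood apart with 18 losses and 18.6 Mb lost, and tumour 3 with 149 Mb gained. Segmented after normexp correction, tumour 5 had 4 losses of 1.12 Mb, and tumour 2 had the most, 23 of 18.3 Mb. Tumour 5 also stood apart on chromosome 19, at +0.22. Tumour 1 stood apart at the chromosome 4 loss that starts at 88879097, with -3.30. It was also the lowest at the chromosome 4 gain that starts at 35747474, with +0.11, although it was the highest at most other shared gains; after normexp correction it lay at +0.14 and tumour 5, at +0.12, was lower. In the chromosome 12 window at 115000001, tumour 5 was the least reduced, at -0.33, beyond the end of its called loss.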

How the results depend on the processing

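Gains, losses and gained and lost DNA per tumour moved by less than 1 SD under every alternative run, including other thresholds and leaving out each tumour; with so wide a spread this says little about stability. Leaving out a tumour gave a mean of 11 (without tumour 1) to 19.25 gains, 5.0 (without tumour 5) to 8.5 losses, 5.61 (without tumour 3) to 42.8 Mb gained and 1.79 (without tumour 5) to 6.28 Mb lost. A penalty of 4 gave 5.8 gains, 3.2 losses and 3.42 Mb lost, a threshold of 0.5 gave 8.8 gains, 4.2 losses, 6.86 Mb gained and 1.85 Mb lost, a threshold of 0.2 gave 68.8 Mb gained and 7.86 Mb lost, and normexp correction 55.2 Mb gained. Leaving out the 2 arrays of weakest tumour signal, an alternative chosen after the data were seen, left 7 gained stretches and 1 lost stretch shared by tumours instead of 15 and 3. The window counts of 344 above and 854 below fell to 6 and 4 with medians over probes and to 61 and 67 with normexp correction. They rose to 721 and 1623 with the slide as a random block, whose consensus correlation was -0.12. Leaving out a tumour gave 1 to 38 above and 2 to 29 below. Normexp correction turned the Y medians of tumours 1 and 2 to +0.074 and +0.040 and the 5-probe chromosome 4 loss of tumour 1 to +0.19. The cause of these changes was not tested. The chromosome 5 and 19 gains kept their direction under all 4 alternatives run on them, and normexp raised them to +0.58, +0.26 and +0.28. No paired analysis was possible because only 1 genotype was analysed.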
